A study of Mus musculus with 2 samples.

Results

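The genes described here encode the proteins of the cytosolic ribosome. They were taken as every gene with a protein-coding transcript whose symbol has the form Rpl or Rps followed by its number, together with Rplp0, Rplp1, Rplp2 and Rpsa, and with neither the S6 kinases nor entries named as pseudogenes. The rule found 84 genes of 55536 in the annotation. Of these, 77 were counted as core genes, 31 of the small (40S) subunit and 46 of the large (60S) subunit, and 7 were paralogs (Rpl3l, Rpl7l1, Rpl10l, Rpl22l1, Rpl36al, Rpl39l and Rps27l). Fau and Rack1 also encode proteins of the ribosome but carry other names, so they fell outside the rule and are given separately.

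Total RNA was sequenced from the hippocampus of male mice of the strain B6CASTF1/J at 2 months of age, a first-generation cross of C57BL/6J with CAST/EiJ. The source label reads layer of hippocampus tissue and does not say which layer. Both libraries were made from 300 ng of RNA and form 1 group of unmanipulated tissue, so no genotype or treatment was compared and no test between groups was possible. They carry biological replicate numbers 1 and 2, but the donor label is the same for both, and the spread between them may be partly technical. Expected counts summed to 31422827 (replicate 1) and 31303010 (replicate 2).

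A ribosome holds a single copy of nearly every one of its proteins, so their mRNAs are read as a set that is made in parallel. Most of these mRNAs begin with a cytidine and a run of pyrimidines, the 5′ terminal oligopyrimidine (TOP) tract, through which mTOR and Larp1 control their translation. In neurons part of them is found in dendrites and axons. The mammalian genome also carries many processed pseudogenes of these genes, intronless copies of the mRNA that were inserted elsewhere, and this bears on how reads are assigned.

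The sequences at the start of transcription are shown first because the TOP tract is the feature that this family is known for. Of the 84 genes, 64 were matched by symbol to a RefSeq start on GRCm38.p6, and the start nearest to that of the main coding transcript was used. For the genes set beside them the first listed start was used, so starts were not chosen alike on both sides. A run of at least 5 pyrimidines covered the start base in 17 of 64 genes (26.6%), beside 9.41% of 9914 protein-coding genes detected in these libraries and 9.95% of all 27025 genes with a listed start. A run of at least 8 was found in 14 genes (21.9%), beside 4.10% of the detected protein-coding genes. Runs were counted to both sides of the start base. The start base itself was C in 20 of the 64 genes (31.2%), beside 15.0% of the detected protein-coding genes. The median run over the 64 genes was 0, which means a start on A or G. Only 15 of the 64 RefSeq starts fell on the same base as the start of the main GENCODE transcript and 23 lay within 10 bases of it, so for the others the listed start may not be the base used in this tissue. Read from the GENCODE starts instead, 11 of the 84 main coding transcripts (13.1%) began with 4 pyrimidines, beside 6.34% of 58797 coding transcripts, and 24 (28.6%) began with C or T, beside 30.5%. The 8 longest runs are printed below in capitals, 5′ to 3′, from 30 bases before the start to 20 bases from the start on.
Rpl7a: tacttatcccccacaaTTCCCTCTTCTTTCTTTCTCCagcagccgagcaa
Rpl27a: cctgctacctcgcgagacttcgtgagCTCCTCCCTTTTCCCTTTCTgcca
Rpl35: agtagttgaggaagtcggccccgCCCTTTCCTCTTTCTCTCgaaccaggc
Rpl15: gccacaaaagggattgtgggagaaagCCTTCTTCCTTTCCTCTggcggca
Rpl14: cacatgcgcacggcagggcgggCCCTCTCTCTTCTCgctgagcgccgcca
Rps10: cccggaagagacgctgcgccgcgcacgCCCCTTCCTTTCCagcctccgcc
Rpl28: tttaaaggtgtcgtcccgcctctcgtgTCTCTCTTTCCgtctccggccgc
Rps18: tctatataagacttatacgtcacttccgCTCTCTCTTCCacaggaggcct

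These windows lie at chr2:26910777-26910826 on the plus strand for Rpl7a, chr7:109519165-109519214 on the plus strand for Rpl27a and chr2:39005112-39005161 on the minus strand for Rpl35. The others are chr14:18270967-18271016 on the minus strand for Rpl15, chr9:120571487-120571536 on the plus strand for Rpl14, chr17:27635225-27635274 on the minus strand for Rps10, chr7:4792935-4792984 on the plus strand for Rpl28 and chr17:33955646-33955695 on the minus strand for Rps18. The runs were 21, 20, 18, 17, 14, 13, 11 and 11 bases long in the order printed. Each began before the listed start, at position -14 from it for Rpl7a, -8 for Rpl14, -7 for Rpl35 and -2 for Rps18. The part of a run before the start lies outside an RNA that begins there. The listed start base was C in 6 of these 8 windows and T in those of Rpl7a and Rpl27a. None of the 8 starts lay within 10 bases of the GENCODE start, the distances running from 12 bases for Rps18 to 769 bases for Rps10.

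Short motifs were searched on both strands of the 300 bases around each start, 250 before it and 50 after, and none of the motifs contains another. The starts were those used above, again not chosen alike for the family and the genes beside it. CCGGAAG, the core letters bound by ETS family factors, was present in 24 of 64 genes (37.5%), beside 17.8% of the detected protein-coding genes. GCCATNT, the letters of the YY1 site, was present in 15 genes (23.4%) beside 15.1%. GGGCGG, the GC box, was found in 39 genes (60.9%) beside 66.0%, and CCAAT in 20 genes (31.2%) beside 38.6%. TATAAA was found in 6 genes (9.38%) beside 6.42%, and CACGTG in 6 genes (9.38%) beside 10.3%. These are matches of letters only, and no binding was measured.

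Levels are given as TPM, a relative transcript abundance that corrects for transcript length, from the quantification of aligned reads (the first quantification) unless the second, made directly from the reads, is named. Detection meant 1 TPM or more in each library. All 77 core genes were detected, and 81 of the 84 genes in all, beside 57.8% of 21938 nuclear protein-coding genes. In replicates 1 and 2 the core genes had medians of 178 and 180 TPM. By their mean level, 72 of the 77 lay in the highest 10 percent of detected protein-coding genes, which began at 70.3 TPM. The 5 below that level were Rpl27a, Rpl36a, Rpl12, Rpl5 and Rpl27.

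The whole family held 3.72 ± 0.0730% of the TPM of nuclear protein-coding genes (SD, n = 2, as for all SDs below), but only 0.783 ± 0.0261% of their counts. Their main coding transcripts were short, with a median of 681 bases for the core genes beside 1816 bases for all coding transcripts. In the second quantification the shares were 4.35 ± 0.118% of TPM and 0.751 ± 0.0277% of counts. Among nuclear protein-coding genes the family was therefore a few percent of TPM and under 1 percent of counts in both. Of all TPM in the first quantification it held 1.55 ± 0.00810%. For scale, the 78 mitochondrial ribosomal protein genes, which serve the separate ribosome of that organelle, had medians of 22 and 20.8 TPM.

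**Figure D1:**
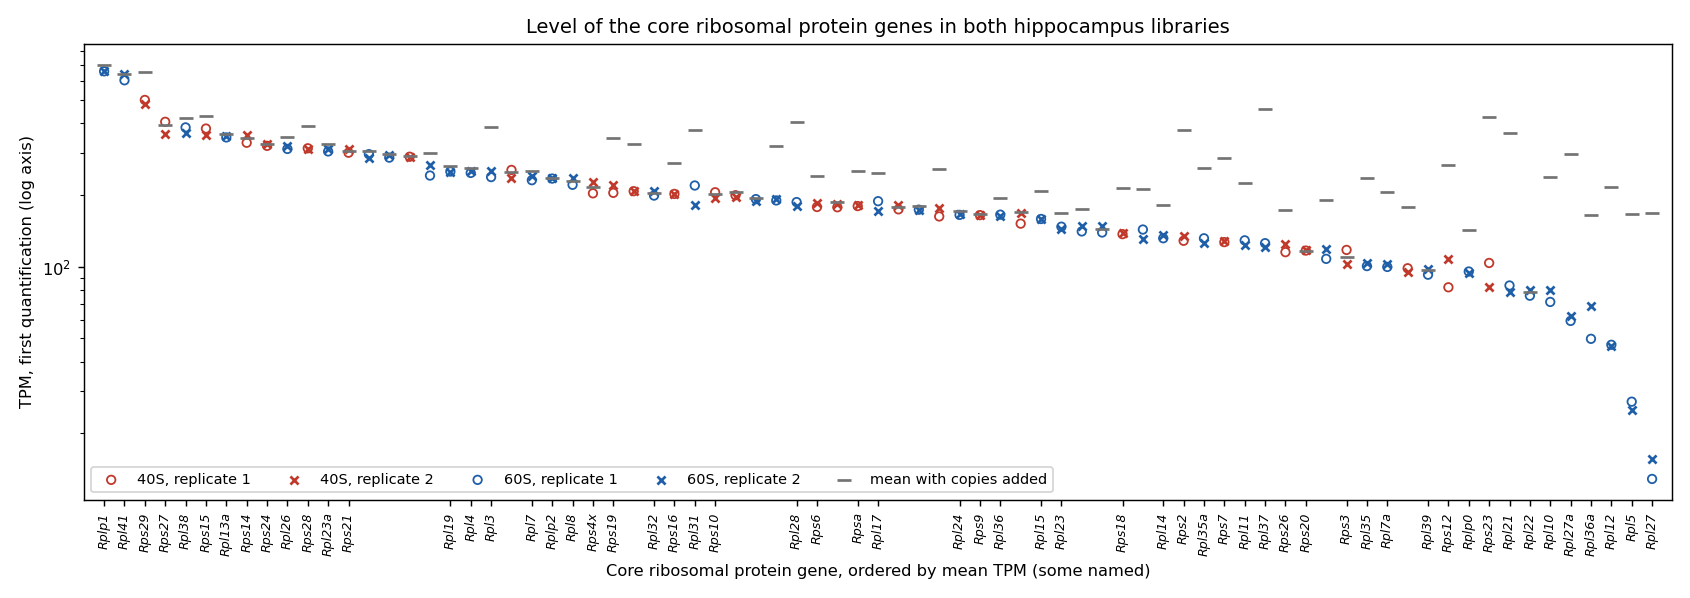
TPM of the 77 core ribosomal protein genes in the first quantification (log axis), ordered by mean, with replicate 1 as circles, replicate 2 as crosses, 40S genes in red and 60S genes in blue. Only genes described in the text are named on the axis. Grey dashes give the mean after the TPM of each gene's copies was added, which raises Rpl27, the lowest gene, from 14.2 to 168 TPM.

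Levels were far from equal within the family. Rplp1, an acidic protein of the stalk that recruits translation factors, was highest, at 660 and 664 TPM in replicates 1 and 2, and lies at chr9:61913284-61914542. Rpl41, the shortest ribosomal protein, with a coding sequence of 78 bases, followed at 605 and 642 TPM. Rps29, a small zinc-binding protein of the 40S head, stood at 500 and 483 TPM. The ranges of these 3 genes over the libraries did not overlap, but their order was not kept, since with copies added Rps29 (636 and 673 TPM) was above Rpl41 (622 and 660 TPM) in both libraries.

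Next came Rps27 at 405 and 361 TPM, and Rpl38, a small 60S protein known for its part in translating Hox mRNAs, at 384 and 362 TPM. Rps15, whose tail reaches the decoding site, was at 380 and 357 TPM. These neighbours overlapped in their ranges over the libraries, so their order is not separated by the spread. Rpl13a (348 and 354 TPM), Rps14 (331 and 356 TPM), Rps24 (321 and 328 TPM) and Rpl26 (312 and 320 TPM) completed the 10 highest. The 57 core genes ranked between the highest and the lowest 10 ran from Rps28 at a mean of 312 TPM to Rps12 at 95.1 TPM.

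At the other end, Rpl27, a 60S protein, had 12.9 and 15.6 TPM and lies at chr11:101442298-101445529. Rpl5, which carries 5S rRNA into the ribosome, had 27.1 and 25.0 TPM. Rpl12, at the base of the stalk, had 47.0 and 46.5 TPM. These 3 did not overlap with each other or with any other core gene.

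Above them stood Rpl36a (49.8 and 68.2 TPM), Rpl27a (59.2 and 62.3 TPM), Rpl10 (71.1 and 79.7 TPM) and Rpl22 (75.5 and 79.8 TPM). Rpl21 (83.4 and 78.7 TPM), Rps23 (104 and 81.9 TPM) and Rplp0 (95.4 and 93.6 TPM) completed the 10 lowest. The highest and lowest core genes were 46.5-fold apart by mean TPM, and the coefficient of variation over the core genes was 59.3%. High and low genes alike had copies elsewhere in the genome, which are described next.

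Copies were sought as annotated genes outside the family that share at least 10 percent of the 31-base words of a member's main coding transcript. There were 816 copies, 798 of a pseudogene type, 16 annotated as protein-coding and 2 of other types. Of the 84 genes, 78 had at least 1 copy, with a median of 6 and a highest number of 72 for Rpl7a. Rpl8, Rps20 and Rps3 were among the core genes with none by this rule. For Rps20 the main coding transcript has 3706 bases, of which 360 are coding, so a copy of the coding sequence alone could not reach 10 percent. In the first quantification the copies held 21.9 ± 0.166% of the counts of genes and copies together, and in the second 11.1 ± 0.416%.

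The clearest cases are pairs whose coding sequences cannot be told apart where they align. Rps23, a protein of the decoding centre, and Rps23-ps1, a processed pseudogene at chr3:37714740-37715164, have no mismatch over 425 aligned coding bases of 432. Rpl10, needed for the last steps of 60S maturation, and Rpl10-ps3, a copy at chr9:50344201-50344968 that the annotation types as protein-coding, have none over 645 bases. In contrast, Rps15 and its copy Rps15-ps2 at chr6:58017506-58017943 differ at 10 of 438 coding bases. The first 60 coding bases of the Rps23 and Rpl10 pairs and coding bases 175 to 234 of the Rps15 pair are printed 5′ to 3′ from the GENCODE M21 transcripts on mm10, with mismatches within a pair in capitals.
Rps23: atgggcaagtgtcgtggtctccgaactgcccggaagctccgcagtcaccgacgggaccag
Rps23-ps1: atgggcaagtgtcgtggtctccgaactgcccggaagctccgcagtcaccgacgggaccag
Rpl10: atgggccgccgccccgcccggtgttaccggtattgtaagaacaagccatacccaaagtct
Rpl10-ps3: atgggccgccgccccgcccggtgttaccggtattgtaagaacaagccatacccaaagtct
Rps15: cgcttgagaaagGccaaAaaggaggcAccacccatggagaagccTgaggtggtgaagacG
Rps15-ps2: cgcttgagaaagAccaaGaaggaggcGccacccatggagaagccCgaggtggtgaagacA

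For Rps23 the first quantification gave 1047 and 865 counts in replicates 1 and 2, and 2377 and 2567 counts to its 11 copies. The second gave Rps23 3476 and 3508 counts and the copies 7.09 and 20.6. Gene and copies together therefore differed by a ratio of 1.02 between the quantifications, while Rps23 alone was 3.65-fold higher in the second. For Rps15, whose copy Rps15-ps2 differs from it in the aligned coding sequence, the gene held 88.8% and 87.2% of the counts of gene and copies in the first and 99.5% in both libraries of the second.

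Rpl10 had 1105 and 1312 counts in the first quantification beside 2443 and 2487 on its copies, and 3664 and 3887 counts in the second beside 1.12 and 14.6. For Rpl27 the first gave 154 and 203 counts to the gene and 1122 and 1068 to its 9 copies, and the second gave 1307 and 1284 to the gene and 1.00 and 0 to the copies. Rpl27 alone was thus 7.25-fold higher in the second quantification, and 1.02-fold higher with its copies. For Rpl27 and Rpl10 the assignment of reads and a low level of the mRNA cannot be told apart in the first quantification alone.

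Not every split was resolved one way. Rpl5 had 965 and 916 counts beside 2879 and 2982 on its copies in the first quantification, most of them on Gm15500. In the second it had 1767 and 1672 counts, still below the 2031 and 2213 on the copies. Rps2, a protein of the mRNA entry site with 60 copies, had 2499 and 2768 counts beside 4172 and 4625 in the first and 2883 and 3290 beside 3089 and 3437 in the second. Copies held more counts than the gene in both libraries for 11 genes in the first quantification and for 3 in the second.

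Of 81 genes with 50 or more counts in every library and quantification, 25 had summed counts at least 25 percent apart between the quantifications (the higher 25 percent or more above the lower), 14 higher and 11 lower in the second. The share, 25 of 81, is read beside 5.25% of 12563 nuclear protein-coding genes. When copies were added on both sides, 14 genes were past that ratio, 0 higher and 14 lower in the second. They held the 11 genes already lower alone, and Rpl35a and Rps12 were among the others. Among the 14 genes that were higher alone were Rpl27, Rps23, Rpl10, Rpl21, Rpl27a, Rpl36a, Rpl28, Rpl37, Rpl5, Rpl12, Rpl11, Rpl31 and Rpl35. Spearman's rho of the summed counts between the quantifications across the 77 core genes was 0.637 alone and 0.868 with copies, a description across genes that share both libraries.

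The gene's own share of the counts was also compared by how like the copy is. Copies were ranked and filtered by their counts in the first quantification, a choice that favours a higher own share in the second. For 56 genes the copy with the most counts in the first quantification held at least 100 counts there over both libraries. In 17 of these that copy had no mismatch over more than 95 percent of the coding sequence, and the gene's own share of the counts was higher in the second quantification by a median of 24.4 percentage points, with a range from 2.22 for Rpl41 to 85.9 for Rpl27. In the other 39 genes the median was 7.68 points, with a range from -52.8 to 37.9, so the ranges overlap and some copies without a mismatch went with almost no shift. The lowest value belongs to Rpl19, a protein at the tunnel exit, which is described below.

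**Figure D2:**
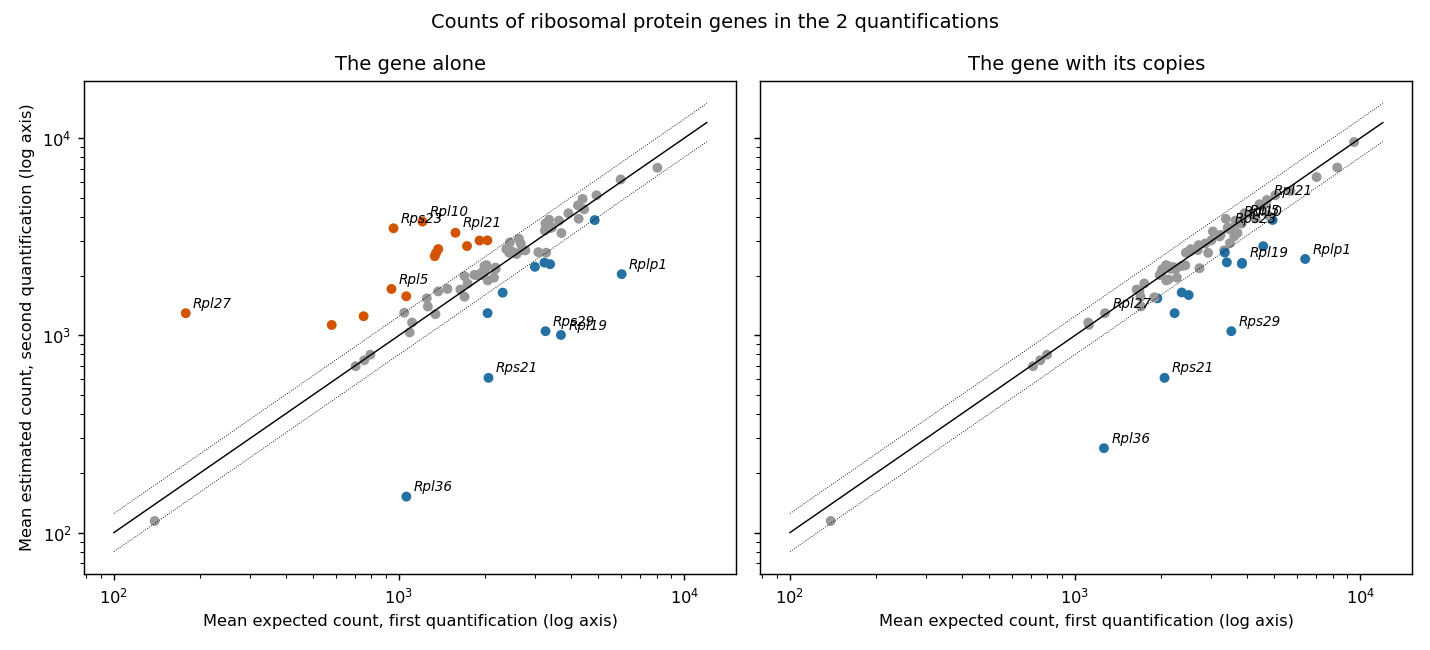
Mean counts of 81 ribosomal protein genes in the first (x) and second (y) quantification, both on log axes, for the gene alone (left) and with its copies (right), with the solid line at equality and dotted lines 25 percent either side. Orange points (14 left, 0 right) are higher in the second, and blue points (11 left, 14 right) are lower.

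Of the 11 genes that were lower in the second quantification, Rpl36 had the lowest ratio of counts, followed by Rpl19, Rps21, Rps29 and Rplp1. Rpl36 had 1055 and 1066 counts in the first quantification and 150 and 154 in the second. Rps21 had 1999 and 2120 beside 578 and 640, with no counts on its copies in either. Rps29 had 3275 and 3252 beside 906 and 1194. Rplp1 had 5935 and 6140 beside 2003 and 2085, so the highest gene by TPM in the first quantification lost the most counts.

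The main coding transcripts of Rpl36, Rps21, Rps29 and Rplp1 are 383, 394, 390 and 499 bases long. Rpl41 at 437 bases and Rps27 at 345 bases had ratios of 1.04 and 0.995 between the quantifications, and Rpl13 at 780 bases and Rpl6 at 1270 bases were among the 11. In the second quantification, however, 99.6% and 99.4% of the TPM of Rps27 was on transcripts with a retained intron. The most abundant transcript of Rpl41 there was another, Rpl41-204. The part of transcript length in these ratios was not tested. Rpl19, with 751 bases, had 3664 and 3730 counts in the first and 1027 and 982 in the second, where its copies, nearly all through Rpl19-ps11, held 1241 and 1411. Rpl19 ran against the direction seen for Rpl27, Rps23 and Rpl10.

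The effective length, the number of positions at which a read could start, by which TPM is scaled, also differed between the quantifications. It was the transcript length minus 99 bases in the first quantification. In the second, long coding transcripts lost a median of 341 bases in replicate 1 and 336 in replicate 2, and the main coding transcripts of the core genes had effective lengths a median of 1.70-fold shorter than in the first. In the second quantification the core medians were 346 and 368 TPM. The part of all TPM on nuclear protein-coding genes was 41.6 ± 0.598% in the first and 74.3 ± 0.0815% in the second, so TPM of the 2 quantifications is not on 1 scale. Single genes are therefore set side by side as shares of the core TPM, or by their order within a quantification.

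By the ratio of their shares of the core TPM, the genes that gained most in the second quantification were Rpl27 (0.0931% to 0.728%), Rpl27a (0.397% to 1.70%), Rps23 (0.607% to 1.98%), Rpl10 (0.493% to 1.56%), Rpl5 (0.170% to 0.448%) and Rpl37 (0.806% to 2.02%). Those that lost most by this ratio were Rpl36 (1.07% to 0.298%), Rpl19 (1.63% to 0.471%), Rpl17 (1.18% to 0.565%), Rplp1 (4.33% to 2.27%), Rps3 (0.720% to 0.381%) and Rpl7 (1.54% to 0.844%). By the difference of shares the order was another, with Rpl31 (1.31% to 2.55%) among the largest gains and Rps29 (3.22% to 1.99%) among the largest losses. Of the 10 highest core genes, 7 were also among the 10 highest in the second quantification (Rplp1, Rpl41, Rps29, Rpl38, Rps15, Rps24 and Rpl26). Of the 10 lowest, 4 were (Rpl5, Rpl12, Rpl22 and Rpl36a). Rpl41 headed the second quantification, at 1496 and 1622 TPM.

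The positions of the proteins in the ribosome give another view of the same levels. The 31 core 40S genes had medians of 180 and 184 TPM in the 2 libraries, and the 46 core 60S genes 165 TPM in both. The ratio of the medians was 1.10, with 1.09 in replicate 1 and 1.12 in replicate 2, and 1.00 in the second quantification. The small gap between the subunits was therefore not seen in both quantifications.

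Proteins that work side by side did not have equal mRNA levels. In the stalk, where 2 pairs of Rplp1 and Rplp2 sit on Rplp0, Rplp2 had 234 and 235 TPM and Rplp0 had 95.4 and 93.6 TPM, far below Rplp1. Rpl11, which with Rpl5 binds 5S rRNA and can bind Mdm2, had 129 and 124 TPM beside the 27.1 and 25.0 TPM of Rpl5. With copies added Rpl5 had a mean of 166 TPM and Rpl11 a mean of 225 TPM.

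A set of 3 proteins lines the tunnel through which the new protein leaves. Rpl4 had 247 and 252 TPM, Rpl17 had 188 and 172 TPM and Rpl39 had 92.5 and 97.9 TPM. At the end of the tunnel, where chaperones and the signal recognition particle dock, Rpl26 and Rpl23a (304 and 310 TPM) stood above Rpl19 (251 and 249 TPM), Rpl31 (219 and 182 TPM) and Rpl35 (101 and 104 TPM). These orders did not hold in the second quantification, where Rpl31 (860 and 772 TPM) was above Rpl23a (610 and 617 TPM), Rpl19 (155 and 146 TPM) was the lowest of the 5 at the tunnel end, and Rpl17 (194 and 167 TPM) was below Rpl39 (246 and 271 TPM).

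On the 40S subunit, the mRNA enters past Rps9 (165 and 165 TPM), Rps2 (128 and 135 TPM) and Rps3 (118 and 103 TPM). Among the proteins it leaves past are Rps14, Rps28 (314 and 311 TPM) and Rps26 (115 and 125 TPM). Rps14 and Rps28 were above the 3 entry genes in both libraries and both quantifications, but with copies added Rps2 (361 and 387 TPM) was above Rps14 (333 and 357 TPM). Rps26 was below Rps9 and Rps2 in the first quantification and, at 323 and 343 TPM, above both in the second, where Rps9 had 307 and 306 TPM and Rps2 had 241 and 268 TPM. At the decoding site Rps15 was above Rps23 by the genes alone. With copies added they had means of 428 and 425 TPM, and in the second quantification Rps15 had 719 and 666 TPM and Rps23 had 635 and 628 TPM. Rps6, the protein phosphorylated by S6 kinase and widely used as a readout of mTOR activity, had 178 and 184 TPM, near the core median.

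Among genes that are mutated in Diamond-Blackfan anaemia, an inherited failure of red cell production, Rps24 was above Rps19 (204 and 220 TPM) and Rps10 (205 and 194 TPM). Rpl35a (132 and 126 TPM) and Rps7 (127 and 128 TPM) were lower in the first quantification. This order turned with copies added, where Rpl35a (mean 259 TPM) and Rps7 (285 TPM) were above Rps10 (201 TPM), and Rps19 (347 TPM) was above Rps24 (328 TPM). In the second quantification Rpl35a (425 and 404 TPM) was above Rps10 (265 and 253 TPM).

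Members lay on 19 chromosomes, and 4 of them on the X, of which a male carries 1 copy. Rps4x had 203 and 226 TPM and Rpl39 had 92.5 and 97.9 TPM. Rpl10 and Rpl36a were among the lowest, both with a copy on an autosome that took most or about as many of the reads. With copies added, Rpl10 had a mean of 237 TPM and Rpl36a a mean of 165 TPM.

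The paralogs were unequal to their counterparts. Rpl22l1, which in other tissues can stand in for Rpl22, was at 84.8 and 89.4 TPM, above Rpl22 itself at 75.5 and 79.8 TPM, and in the second quantification it was again higher, at 213 and 227 TPM beside 153 and 167 TPM. In protein-coding transcripts alone the order in the first quantification was the reverse, with 13.7 and 9.57 TPM for Rpl22l1 beside 69.8 and 74.3 TPM for Rpl22. In the second it was 77.2 and 107 TPM for Rpl22l1 beside 42.8 and 42.2 TPM for Rpl22. Rpl36al was at 76.2 and 77.5 TPM, above Rpl36a alone, and below the sum of Rpl36a and its copies. In the second quantification the order of this pair was the reverse, with Rpl36al at 132 and 136 TPM and Rpl36a at 173 and 202 TPM. Rpl36a and Rpl36al share 87.9% of their coding bases, and Rpl22 and Rpl22l1 share 70.2%.

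Rpl7l1 had 20.9 and 19.6 TPM, beside 231 and 240 TPM for Rpl7. Rps27l, a target of p53, had 15.6 and 14.5 TPM, far below Rps27. Rpl3l, a muscle form of Rpl3, had 7 counts in replicate 1 and 4 in replicate 2, which is 0.25 and 0.19 TPM, beside 238 and 253 TPM for Rpl3. Rpl10l and Rpl39l, forms known from testis, had 0 counts in both libraries. A count of 0 is read as allowing up to 3 counts, which for Rpl10l is up to 0.144 and 0.141 TPM, and for Rpl39l 0.231 and 0.224 TPM. These limits cover counting error only.

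The 2 libraries gave nearly the same profile. Pearson's r on log2(TPM + 1) over the 84 genes was 0.998 and Spearman's rho of TPM was 0.993, both descriptions across genes. Over the 81 genes with 50 or more counts in each library, the median log2 ratio of replicate 2 over replicate 1 was 0.015, with 49 genes above 0 and 32 below, beside -0.044 over all 13910 genes with that count. With counts scaled by TMM the median was 0.061, with 65 above and 16 below, beside 0.00 over all genes. Single genes spread with an SD of 0.12 on the log2 scale around the family's median, beside 0.20 over all genes.

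Between the libraries 3 of 81 genes were at least 25 percent apart, meaning that the higher value was 25 percent or more above the lower, beside 10.2% of all 13910 genes. At 2-fold there were 0 of 81 beside 0.273%. The 3 were Rpl36a (49.8 and 68.2 TPM, log2 ratio 0.45), Rps12 (81.9 and 108 TPM, 0.40) and Rps23 (104 and 81.9 TPM, -0.34). Each has a copy with no mismatch in the aligned coding sequence. For Rps12, a 40S protein, that copy is Rps12-ps3, which the annotation types as protein-coding.

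With copies added the 3 ratios were -0.10 for Rpl36a, 0.04 for Rps12 and -0.02 for Rps23, and 0 of the 81 genes were 25 percent apart. The summed levels of Rps23 and its copies were 428 and 423 TPM. The interval of TPM that the authors deposited for each library, which covers the assignment of reads within it, ran from 70.6 to 115 TPM for Rps12 in replicate 1 and from 86.2 to 134 TPM in replicate 2. Those 2 intervals overlap, while the 2 intervals of Rpl36a did not, nor did those of Rps23.

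In the second quantification 4 genes were 25 percent apart, and none of the 3 was among them. They were Rps28 (482 and 677 TPM), Rps29 (541 and 730 TPM), Rps19 (307 and 406 TPM) and Rplp2 (287 and 368 TPM), all higher in replicate 2. Their counts there were 1161 and 1432, 906 and 1194, 1947 and 2049, and 2020 and 2134 in the same order. For Rps19 and Rplp2 the counts were thus closer between the libraries than the TPM. The share of Rps19 TPM with a retained intron was 1.00% in replicate 1 and 18.4% in replicate 2. In the first quantification the 4 genes had log2 ratios of -0.01, -0.05, 0.11 and 0.00. Their main coding transcripts, chosen by the first quantification, are 382, 390, 417 and 421 bases long. In the second the most abundant transcripts of Rps19 and Rplp2 were others, Rps19-203 and Rplp2-201. No gene of the family was thus 25 percent apart in both quantifications. For the second quantification the share of all genes 25 percent apart was not counted, so these 4 have no such share beside them.

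**Figure D3:**
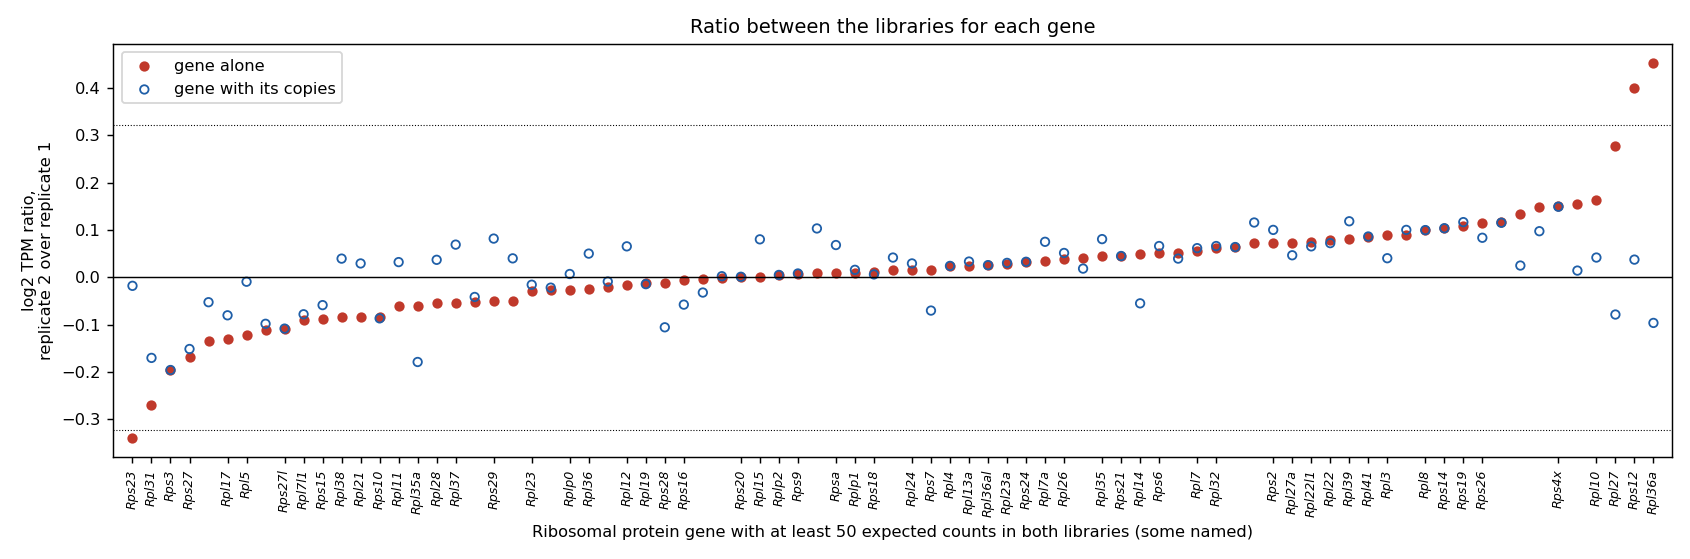
log2 TPM ratio of replicate 2 over replicate 1 for the 81 genes with 50 or more counts in each library, for the gene alone (red) and with its copies (open blue), with dotted lines at 25 percent. Only genes described in the text are named on the axis. Rpl36a, Rps12 and Rps23 lie past the dotted lines alone, and 0 genes do so with copies added.

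The cell makeup of the tissue was checked with 8 short marker lists. Neuron markers (Hpca, Snap25 and Neurod6) had medians of 924 and 879 TPM, and every marker of granule cells, CA1, CA3, astrocytes, oligodendrocytes and microglia was detected. Of 3 choroid plexus markers, Ttr was at 10.6 and 23.1 TPM, Kl at 4.04 and 3.96 TPM and Folr1 at 0.08 and 0.23 TPM. In the log2 ratio of replicate 2 over replicate 1, Ttr was at 1.12 and Kl at -0.03. Of the 3 markers in each list, 0 were above 0 for neurons and for astrocytes, and 1 for CA3 and for oligodendrocytes. For granule cells, CA1 and microglia 2 of 3 were above 0. The part of cell makeup in the ratios above was not tested. In bulk tissue fewer cells of a type and less RNA per cell cannot be told apart.

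Transcript types showed how much of each gene's signal lay in coding mRNA. In the first quantification 83.5 ± 0.330% of the family's TPM was in protein-coding transcripts, 8.00 ± 0.221% in transcripts with a retained intron, 4.93 ± 0.0296% in processed transcripts with no open reading frame and 3.56 ± 0.0793% in transcripts marked for nonsense-mediated decay. In the second the coding share was 69.3 ± 0.225% and the share with a retained intron 16.5 ± 0.340%. The most abundant transcript was coding in both libraries for 63 core genes in the first, for 55 in the second and for 50 in both. Only 35 core genes had the same most abundant transcript in both quantifications, so the transcript of a single gene is uncertain here. The shares and counts by transcript type, here and below, were made for this family only. With no share over other genes beside them, they are not read as a trait of the family.

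Below 70 percent of TPM in coding transcripts were 17 core genes in the first quantification and 29 in the second, with 12 in both. Among these 12 were Rpl13a, Rps16, Rpsa, Rpl23, Rps18, Rpl37, Rps26, Rps20, Rpl35, Rps23 and Rpl12. Rps20, of the 40S subunit and without copies by the word rule, had a coding share of 5.20% and 5.22% in the first quantification. In the second it had 1.58% and 1.39%, and in both most of the rest was on transcripts with a retained intron. Rpl37 had 14.2% and 16.8% in the first and 0.721% and 0.759% in the second. Rpl23 had 27.4% and 26.9%, and 4.19% and 4.47%.

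Other genes of that list had low shares whose size depended on the quantification. Rps16 had a coding share of 2.27% and 2.52% in the first and 18.3% and 21% in the second. Rps26 had 4.26% and 2.46%, then 52.9% and 54.2%. Rpl13a, a host of small nucleolar RNAs in its introns, had 47.3% and 55.0%, then 17.6% and 12.5%. Rps18 was unsteady even between libraries, with 5.98% and 19.2% in the first and 40% and 0.000158% in the second.

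The remaining 5 of the 17 were mostly coding in the second quantification. Rpl24 had 25.2% and 18.8% in the first and 98.9% and 87.2% in the second. Rpl7, Rps19 and Rpl15 lay between 64.3% and 71.4% in the first and between 71.6% and 96.6% in the second. The reverse was seen for Rps27, with 98.6% and 98.4% in the first and 0.413% and 0.592% in the second, where Rps27-209, a transcript with a retained intron, took its place. In contrast, 32 core genes were over 90 percent coding in both quantifications, among them Rplp1, Rps29, Rps15, Rpl38 and Rpl32.

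**Figure D4:**
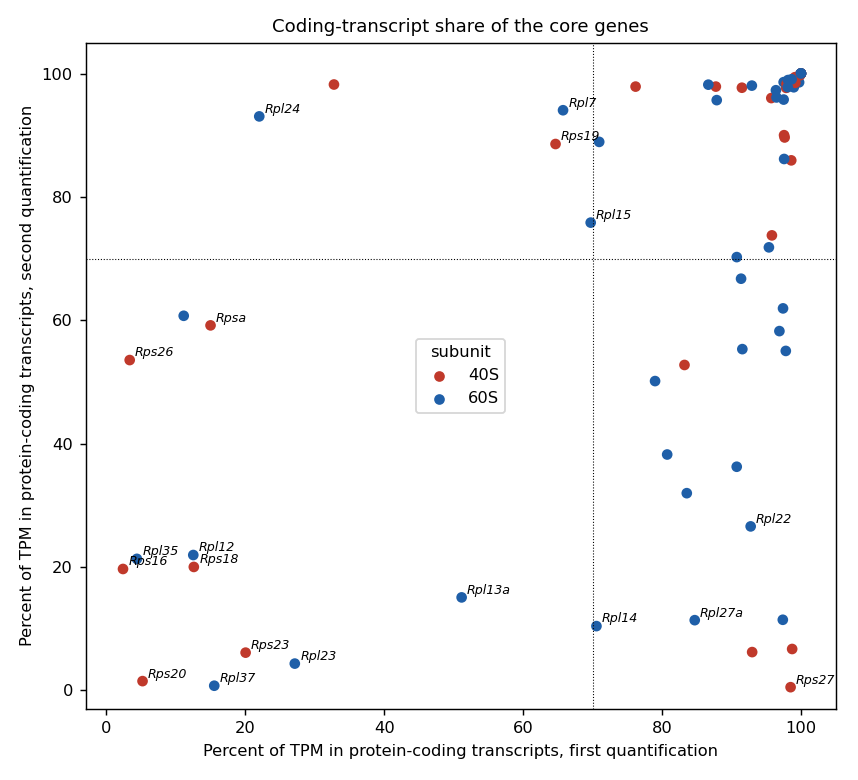
Percent of each core gene's TPM in protein-coding transcripts, as the mean of both libraries, in the first (x) and second (y) quantification, with 40S genes in red, 60S genes in blue and dotted lines at 70 percent. A cluster of 32 genes lies over 90 percent on both axes, while Rps27 is high on x and near 0 on y and Rpl24 lies on the other side.

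Genes that act with the ribosomal proteins, in 8 lists, were all detected. Of the ribosome proteins outside the rule, Fau, which releases a 40S protein, had 291 and 313 TPM, and Rack1 had 97.7 and 102 TPM. Both lay within the range of the core genes. Each of the other 7 lists had a median of at most 26.9 TPM.

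RNA polymerase I and its factors, which make the rRNA, had medians of 13.8 and 12.5 TPM over 12 genes, led by Ubtf at 49.8 and 50.5 TPM. The 11 snoRNP and nucleolus genes had a median of 21.2 and 20.2 TPM, led by Npm1 at 74.4 and 76.6 TPM. The 20 factors of 60S assembly had a median of 19.3 and 18.9 TPM, with Gnl3l highest at 74.1 and 67.5 TPM. The 13 factors of 40S assembly had a median of 11.2 and 10.9 TPM, with Emg1 highest at 23.6 and 22.9 TPM. All 4 medians were far below that of the ribosomal proteins themselves.

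The 7 dedicated chaperones, which escort single ribosomal proteins to the nucleolus, had a median of 12.2 and 10.9 TPM, led by Aamp at 62.3 and 66.4 TPM. The 17 genes of TOP mRNA translation control had a median of 26.9 and 24.8 TPM, led by Pabpc1 at 121 and 122 TPM, Cnbp at 112 and 115 TPM and Eif4e at 74.2 and 73.8 TPM. The 12 genes of ribosome quality control, which clear stalled ribosomes, had a median of 19.5 and 17.6 TPM, led by Tcf25 at 202 and 196 TPM. In the log2 ratio of replicate 2 over replicate 1, 1 gene of this last list was above 0 and 11 were below, with 4 and 11 for TOP control and 3 and 9 for RNA polymerase I. Over all genes with 50 counts 5135 were above 0 and 8706 below.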

How the data were processed

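Each library had a gene table and a transcript table in the column layout of RSEM, per the file headers, and a second transcript table in the layout of kallisto. Per the deposited text listings, the first pair came from a transcriptome alignment and the second table directly from the reads, on mm10 with GENCODE M21. The programs are named in neither the labels nor the files. The deposited expected count (estimated count in the second table) is the authors' estimate of reads per feature and need not be whole. The deposited TPM is the authors' length-scaled abundance with a fixed sum over all entries. The interval bounds of TPM are as deposited by the authors. mm10 represents C57BL/6J, and CAST/EiJ alleles have no sequence of their own in these tables.

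Second-table transcripts were summed per gene. Copies were found with 31-base words (at least 10% shared, each copy given to its best member, loci overlapping the member left out), and coding sequences were aligned with Biopython 1.88. Counts of a gene and its copies were added. TMM factors came from edgeR 4.0.16 in R 4.3.3. Other steps used Python, pandas and numpy. Ratio calls used at least 50 counts in both libraries and a difference of 25 percent, and were tested on simulated data. The simulated counts held no reads shared between a gene and its copies, so that test does not cover such assignment. Expected counts summed to 31422827 and 31303010. With 1 group there was no test and no p-value. Rps4l is typed as a pseudogene and is no member. Genes were named by rule: the 10 highest and 10 lowest core genes, paralogs and counterparts, genes 25 percent apart, the 6 largest shifts of core share either way, genes under 70% coding, X-linked genes, structural groups and the highest genes of 8 related lists. Some genes that these rules name are not reported here. Some further genes beside copies were chosen after their values were seen. The members and lists were chosen with earlier results of these data known. Alternatives covered the quantification, scaling, thresholds, copies and each library.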

Additional observations from a re-analysis of the deposited data

How the results depend on the processing

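The choice of quantification moved most values. With the second quantification the median TPM of the core genes was 356 (180 as reported), the highest and lowest core genes were 16.4-fold apart (46.5), the coefficient of variation was 52.9% (59.3%) and the ratio of the 40S to the 60S median was 1.00 (1.10). The family's share of nuclear protein-coding TPM was 4.35% (3.72%) and of counts 0.751% (0.783%), the coding share 69.3% (83.5%), and, of the TPM on members and pseudogenes named after them, the part on the pseudogenes 5.09% (12.3%). With copies added the core median was 246 TPM, the range 9.0-fold, the coefficient of variation 43.7%, the share of TPM 5.04%, the number of genes 25 percent apart between the libraries 0, and that between the quantifications 14 (25), or 21 when a copy had to share at least 50 percent of the words. These copy settings were chosen after seeing the data. Scaling to nuclear protein-coding genes gave a core median of 433 TPM, and counts per effective length of the main coding transcript gave a range of 53.5-fold. The median log2 ratio between the libraries was 0.061 with TMM-scaled counts, 0.046 in the second quantification, 0.044 with nuclear protein-coding scaling and 0.032 with copies added, beside 0.015. Leaving out 1 library gave core medians of 178 to 180 TPM, ranges of 42.6-fold to 51.3-fold, coefficients of variation from 59.2% to 59.5%, subunit ratios of 1.09 to 1.12, shares of 3.67% to 3.77% of TPM and 0.765% to 0.802% of counts, coding shares of 83.3% to 83.7%, and 81 detected genes each time. For the changes between settings the cause was not tested. No paired analysis was possible because the study has 1 group. The paralogs Rpl3l, Rpl10l and Rpl39l had under 10 counts. The part of depth in these or other values was not tested.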

Other observations

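Introns of the family's genes hold many small nucleolar RNAs (snoRNAs), guides for the modification of rRNA that are cut out of the host's intron. An annotated snoRNA gene lay within 30 of the 84 genes on the same strand (35.7%), beside 245 of 12689 detected nuclear protein-coding genes (1.93%). Of the 58 snoRNA genes within members, 35 are no longer than the 99 bases taken off for the effective length of the first quantification. All 35 were listed at 0 and could not hold a value there. Of the 23 longer ones, 10 reached 1 TPM in each library. Several of the 10 rested on few counts, such as Gm24888 (5 and 5), Snora64 (5.63 and 5.97) and Gm22270 (4 and 15). Snord15b, in an intron of Rps3, was highest, with 255 counts in replicate 1 and 303 in replicate 2 (247 and 285 TPM), followed by Gm26448 within Rpsa, with 301 and 399 counts (129 and 166 TPM). Snord15a, also within Rps3, had 64 and 53 counts. In the second quantification all 10 were listed at 0 TPM, so these values rest on the first alone. Levels of RNAs this short depend on the effective length, and a read from an unspliced host mRNA cannot be told apart from the snoRNA.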
